A study of Homo sapiens with 4 samples.

Results

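The RNA of 7 genes of cystine import and ferroptosis was followed in pancreatic cancer cells: SLC7A11, CHAC1, GPX4, AIFM2, ACSL4, LPCAT3 and PTGS2. The genes were taken by symbol from the gene table, and all 7 were found among its 16834 genes. SLC7A11 and CHAC1 were far higher after NBT and after both drugs than in the control. GPX4, ACSL4 and LPCAT3 stayed within a factor of 2 of the control in each treated library, and PTGS2 was scarce throughout.

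The cells were MIA PaCa-2, an established line of pancreatic ductal adenocarcinoma (PDAC). They were kept as a control without drug, or received for 12 h either 1 µM NBT (neobractatin, a natural compound of Garcinia bracteata), 5 µM trametinib (which blocks the kinase MEK), or both drugs at these doses. Each condition was sequenced as 1 library with no replicate, so the spread between cultures was not measured and no p-value is given. The libraries held from 18776212 estimated reads (control) to 19614763 (combination). A count of 3 reads equals 0.153 to 0.160 CPM, which is a count scaled to the library's sum. Among 10 genes induced by MAPK signalling, the pathway that MEK serves, all 10 were at least 2-fold below the control after trametinib and after both drugs, and 0 of 10 after NBT. The 4 cell line entries of the labels carry different numbers after the name MIA PaCa, whereas the titles give MIA PaCa-2 for each. Of 6 epithelial line markers in the table, EPCAM lay between 209 and 242 TPM (a level per transcript length that is comparable between genes), CDH1, the gene of E-cadherin, between 51.2 and 86.9 TPM, VIM, the gene of vimentin, between 11.5 and 26.4 TPM, and the keratin KRT7 between 2.25 and 5.74 TPM. The keratins KRT8 and KRT18 were the most abundant, at 1493 to 3799 TPM and 995 to 3142 TPM. They differed with treatment: KRT18 was lower than the control by a log2 value of -1.56 with trametinib and -1.62 with both drugs, and KRT8 by -0.75 and -1.31. In all, 3 of the 6 markers were at least 2-fold lower with both drugs. VIM went the other way, above the control by 1.06 with trametinib and 1.24 with both drugs. The part of these shifts in the results was not tested. The line is generally described as rich in vimentin and poor in E-cadherin, and its identity was not tested. Marker lists of acinar, endocrine and endothelial cells summed to at most 0.67 TPM. The fibroblast list summed to between 0.48 and 1.88 TPM. Of 4 leukocyte markers, PTPRC had 8 to 17 reads (at most 0.99 TPM) and CD14 had 2 to 3 (at most 0.23 TPM). CD68 lay between 91.9 and 139 TPM. CD3E was counted at 0, 0, 55 and 29 reads in the control, NBT, trametinib and combination libraries.

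Ferroptosis is a form of cell death driven by iron and by the oxidation of polyunsaturated lipids in membranes. The antiporter system xc-, made of SLC7A11 and its heavy chain SLC3A2, brings in cystine in exchange for glutamate, and the cysteine made from it feeds the synthesis of glutathione. GPX4 uses glutathione to reduce lipid hydroperoxides, AIFM2 (also called FSP1) protects lipids through reduced coenzyme Q, and CHAC1 breaks glutathione down. ACSL4 and LPCAT3 place polyunsaturated fatty acids into phospholipids, the substrate of the oxidation. PTGS2, the inducible cyclooxygenase, makes prostaglandins and is often measured as a marker that accompanies ferroptosis. SLC7A11 and CHAC1 are known targets of the transcription factor ATF4, and SLC7A11 is also a known target of NRF2.

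A gene was called where an exact binomial test of the counts of 2 libraries passed a false discovery rate of 0.05 over all genes and the ratio reached 2-fold, a log2 fold change of 1 in either direction. Such a call compares 2 libraries, not conditions. The intervals given are 95% intervals that cover counting error only. In RNA from bulk cells, fewer responding cells and less RNA per cell cannot be told apart. The plot of RNA levels by library shows how far apart the 7 genes lay.

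**Figure D1:**
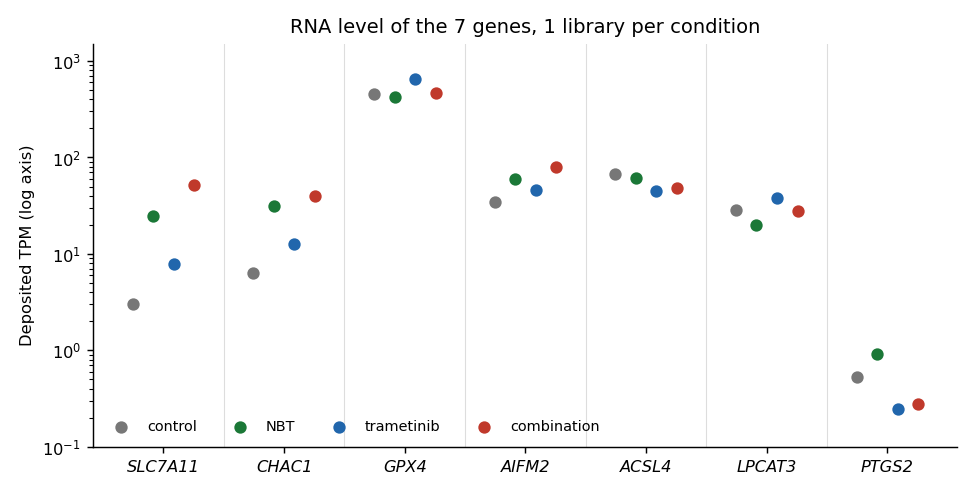
Deposited TPM of the 7 genes on a log axis, with 1 point for each of the 4 libraries. SLC7A11 runs from 3.02 TPM in the control library to 51.7 TPM in the combination library, GPX4 lies between 422 and 648 TPM, and PTGS2 stays under 1 TPM in all 4 libraries.

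SLC7A11 (NCBI gene 23657; chr4:138164097-138242349, GRCh38) encodes the transport subunit of system xc-. It was counted at 279 reads in the control library, 2491 with NBT, 739 with trametinib and 5136 with both drugs. In TPM, these were 3.02, 24.8, 7.78 and 51.7. Every treated library was above the control, and the order was control, trametinib, NBT and combination, with none of the neighbours within counting error of each other. Against the control, SLC7A11 rose by a log2 fold change of 3.11 (2.93 to 3.29) with NBT, which is 8.61-fold. The rise was 1.39 (1.19 to 1.60) with trametinib, or 2.62-fold, and 4.14 (3.97 to 4.32) with the combination, or 17.6-fold. Among the 10408 genes with at least 100 reads in the NBT or control library, it had rank 4 by the size of the rise with NBT, and it had rank 8 of 10527 with the combination. By TPM it moved from rank 10362 in the control library to rank 3090 in the combination library. All its reads were assigned to 1 transcript. An antisense gene, SLC7A11-AS1, shares 865 of the 9645 exon bases of SLC7A11 in the GENCODE annotation and is not listed in the gene table, and strand-aware counting was not stated.

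The rise of SLC7A11 was also present between libraries that share no sample with the first comparison. The combination library was above the trametinib library by 2.75 (2.64 to 2.86), beside 3.11 for NBT against the control. The combination library was also above the NBT library, which the first comparison shares, by 1.03 (0.96 to 1.10). This call rested on the scaling, since the difference was 1.00 and not called with edgeR's TMM factors.

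The partner of SLC7A11 went the other way with NBT. SLC3A2, the heavy chain that carries the transporter to the cell surface and also serves other amino acid transporters, was counted at 16603, 7047, 27310 and 9655 reads in the control, NBT, trametinib and combination libraries. It fell with NBT, by 1.29 on the log2 scale, and between the combination and trametinib libraries by 1.55. With trametinib its log2 fold change was 0.70 and with the combination -0.85, neither called. The ratio of SLC3A2 to SLC7A11 in TPM was thus 303 in the control library, 14.5 with NBT, 189 with trametinib and 9.70 with both drugs. SLC3A2 was the more abundant RNA of the pair in all 4 libraries.

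CHAC1 (79094; chr15:40953471-40956512), a gamma-glutamylcyclotransferase that cleaves glutathione in the cytosol, had 93 reads in the control library, 492 after NBT, 187 after trametinib and 616 after both drugs. The TPM values were 6.29, 31.6, 12.5 and 40.0. It rose by 2.35 (2.03 to 2.69) with NBT and by 2.66 (2.35 to 3.0) with the combination. With trametinib, the value of 0.99 (0.63 to 1.37) lay just under the limit of 1 and was not called. The combination library was above the trametinib library by 1.67 (1.43 to 1.91), which was called, and its difference from the NBT library was 0.31 (0.14 to 0.49), which was not. CHAC2, the paralog of CHAC1, did not share this pattern, with 177, 199, 184 and 165 reads in the control, NBT, trametinib and combination libraries and log2 fold changes of 0.12, 0.04 and -0.16 against the control.

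Promoters of 6 of the 7 genes were matched in a RefSeq table of GRCh38.p14, all but SLC7A11. Each promoter spans 250 bases before the start site and 50 bases from it on. They were searched on both strands for 3 motifs, the C/EBP-ATF composite element bound by ATF4 (TGATGNAAN), the antioxidant response element core bound by NRF2 (TGACNNNGC) and the cyclic AMP response element (TGACGTCA). The CHAC1 promoter is shown since CHAC1 is, of the 6, the gene with the largest rise, and it held the composite element on the strand opposite to the gene (GTTGCATCA, read as TGATGCAAC on that strand). The element, in capitals, begins 210 bases before the start site. It is chr15:40953221-40953520, plus strand:
CHAC1 promoter: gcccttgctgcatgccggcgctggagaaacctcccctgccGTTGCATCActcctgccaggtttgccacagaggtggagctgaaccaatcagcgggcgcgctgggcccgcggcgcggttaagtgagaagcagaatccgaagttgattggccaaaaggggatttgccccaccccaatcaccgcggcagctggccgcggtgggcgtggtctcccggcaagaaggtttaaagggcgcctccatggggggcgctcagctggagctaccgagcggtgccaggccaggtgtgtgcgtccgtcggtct
This motif occurs in 3.61% of all 35116 promoters of the table.

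**Figure D2:**
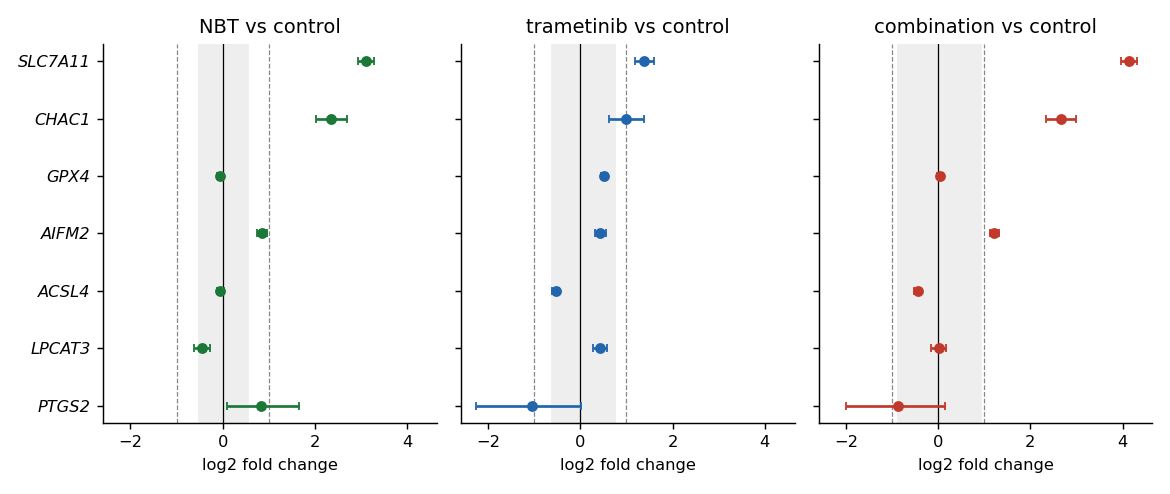
Log2 fold change of the 7 genes against the control library for each of the 3 treatments. Bars are 95% counting intervals, dashed lines mark the limit of 1 in either direction, and the grey band holds the 5th to 95th percentile of all genes with at least 100 reads in 1 of the 2 libraries. SLC7A11 and CHAC1 lie to the right of the band in all 3 panels, and the bar of PTGS2 is the widest in each.

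The genes of lipid peroxide defence behaved differently from each other. GPX4 (2879; chr19:1103994-1106779), the selenoprotein that reduces lipid hydroperoxides, had 3301 reads in the control library, 3278 after NBT, 4781 after trametinib and 3555 after both drugs. The trametinib library alone stood above the other 3, at 648 TPM beside 422 to 463 TPM. Against the control, the log2 fold change was -0.06 (-0.13 to 0.01) with NBT, 0.52 (0.46 to 0.59) with trametinib and 0.04 (-0.02 to 0.11) with both drugs, and none was called. Between the combination and trametinib libraries it was -0.48 (-0.54 to -0.41). GPX4 was thus higher than the control by more than counting error with trametinib, and the intervals for NBT and the combination held 0, except that the one for NBT ended just below 0 with median-of-ratios factors.

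AIFM2 (84883; chr10:70112271-70132825), the oxidoreductase that regenerates reduced coenzyme Q at membranes, had 1038 reads in the control library, 1930 with NBT, 1416 with trametinib and 2530 with both drugs. Its order of levels was that of SLC7A11, from 34.8 TPM in the control library to 46.3 with trametinib, 59.6 with NBT and 79.1 with the combination. It rose with the combination, by 1.22 (1.12 to 1.33). The values of 0.84 (0.74 to 0.96) with NBT and 0.43 (0.32 to 0.55) with trametinib were past counting error and under the limit. The difference between the combination and trametinib libraries, 0.79 (0.69 to 0.88), was close to that between NBT and control.

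The promoter of AIFM2 is shown because it held the antioxidant response element core (GCTGAGTCA, read as TGACTCAGC on the other strand), which begins 22 bases before the start site. The first 7 letters of that reading, TGACTCA, also spell an AP-1 site, a motif added after the values were seen. In the direction of the gene, which is on the minus strand of chr10:70132776-70133075, with the match in capitals:
AIFM2 promoter: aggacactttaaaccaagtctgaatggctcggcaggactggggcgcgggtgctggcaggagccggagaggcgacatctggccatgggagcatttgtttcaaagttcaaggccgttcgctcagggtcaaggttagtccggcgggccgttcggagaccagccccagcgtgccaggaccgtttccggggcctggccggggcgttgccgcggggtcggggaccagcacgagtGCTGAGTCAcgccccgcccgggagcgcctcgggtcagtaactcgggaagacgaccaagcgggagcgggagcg
The core occurs in 13.3% of all promoters in the table and the AP-1 site in 4.95%. Taken by gene, these shares are 18.7% and 5.34% of 13328 counted genes with a promoter. No match to the 3 motifs was present in these windows of GPX4 (3 promoters), ACSL4, LPCAT3 or PTGS2.

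ACSL4 and LPCAT3 act one after the other on polyunsaturated fatty acids, and neither was called in any comparison. ACSL4 (2182; chrX:109641335-109733257), which joins arachidonic and adrenic acid to coenzyme A, had 3131 reads in the control library, 3125 after NBT, 2186 after trametinib and 2415 after both drugs. The 2 libraries with trametinib were the lower ones, at 45.2 and 47.7 TPM beside 66.7 TPM in the control and 61.2 TPM with NBT. The log2 fold change against the control was -0.05 (-0.12 to 0.02) with NBT, -0.53 (-0.61 to -0.45) with trametinib and -0.44 (-0.51 to -0.36) with both drugs.

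LPCAT3 (10162; chr12:6976185-7018476), which passes the activated fatty acid to a lysophospholipid, had 602, 457, 820 and 637 reads in the control, NBT, trametinib and combination libraries. NBT gave the lowest value, 19.97 TPM, and trametinib the highest, 37.8 TPM, while the control and combination libraries were at 28.5 and 28.2 TPM. The log2 value for NBT was -0.45 (-0.63 to -0.27) without trametinib and -0.41 (-0.57 to -0.26) with it, neither called. With trametinib the value against the control was 0.43 (0.28 to 0.59). EMG1, on the opposite strand, shares 3100 of the 4725 exon bases of LPCAT3 and had 3543, 4228, 3307 and 3828 reads. Without strand, reads of these genes cannot be told apart where they overlap, and the part of EMG1 in the values of LPCAT3 was not tested.

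PTGS2 (5743; chr1:186671791-186680423) was scarce. It had 23 reads in the control library, 43 after NBT, 11 after trametinib and 13 after both drugs, or 0.53, 0.92, 0.25 and 0.28 TPM. The libraries with trametinib were the lower ones. The log2 fold change was 0.84 (0.09 to 1.65) with NBT, -1.04 (-2.26 to 0.02) with trametinib and -0.86 (-1.99 to 0.16) with both drugs, and none was called. PTGS2 fell between the combination and NBT libraries, by 1.70 (interval -2.76 to -0.82). The interval with trametinib ended at 0.02, and it ended below 0, at -0.06 and -0.05, with TMM and median-of-ratios factors, where PTGS2 was still not called.

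Across the 7 genes, 2 were called higher with NBT (SLC7A11 and CHAC1), beside 1.63% of all 15888 genes tested, and 0 were called lower, beside 1.13%. With trametinib, 1 was called higher (SLC7A11), beside 3.86% of 16197, and 0 lower, beside 2.28%. With the combination, 3 were called higher (SLC7A11, CHAC1 and AIFM2), beside 4.89% of 16229, and 0 lower, beside 3.83%. Between the combination and NBT libraries, 1 was higher (SLC7A11, beside 2.38%) and 1 lower (PTGS2, beside 2.16%). Between the combination and trametinib libraries, 2 were higher (SLC7A11 and CHAC1, beside 2.64%) and 0 lower, beside 3.73%. NBT gave a median of 0.84 on the log2 scale over the 7 genes, trametinib one of 0.43 and both drugs one of 0.04, where all genes tested had -0.01, 0.08 and 0.05. The median of the combination was thus that of GPX4, with 3 genes above it and 3 below. For NBT it was the value of the scarce PTGS2, at 43 reads beside 23 in the control, and 3 of the 7 genes lay below 0. The 5 comparisons share libraries, so their counts are not independent of each other. The 7 genes were chosen with earlier results of these data known, so the shares beside them are no test of the set. Where cultures were assumed to vary with a coefficient of variation of 0.2, the calls of SLC7A11 and CHAC1 with NBT, with the combination and between the combination and trametinib libraries stayed. Those of SLC7A11 with trametinib, of AIFM2 with the combination, and of SLC7A11 and PTGS2 between the combination and NBT libraries were lost. At 0.4, SLC7A11 with the combination was the 1 call left.

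Whether the drugs added up on the log2 scale was read from the combination's log2 fold change minus the sum of those with each drug alone. A value of 0 means that the ratios of the single drugs multiplied, not that their added reads summed. The value was -0.36 (-0.57 to -0.15) for SLC7A11, which had 5136 reads in the combination library where 6597 would follow from multiplied ratios. For CHAC1 it was -0.68 (-1.08 to -0.28), with 616 reads beside 989, and for GPX4 -0.42 (-0.51 to -0.32), with 3555 beside 4747. These 3 genes lay below the sum by more than counting error. AIFM2 and LPCAT3 were at -0.06 (-0.20 to 0.09) and 0.03 (-0.20 to 0.26), which is the sum within counting error. ACSL4 lay slightly above it, at 0.15 (0.04 to 0.26), and the interval of PTGS2 was too wide to place it. Among the 6 of these genes with at least 50 reads in a library, 0 departed from the sum by 1 or more, beside 2.33% of 11367 genes. The plot of each drug's change without and with the other shows the same values as pairs.

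**Figure D3:**
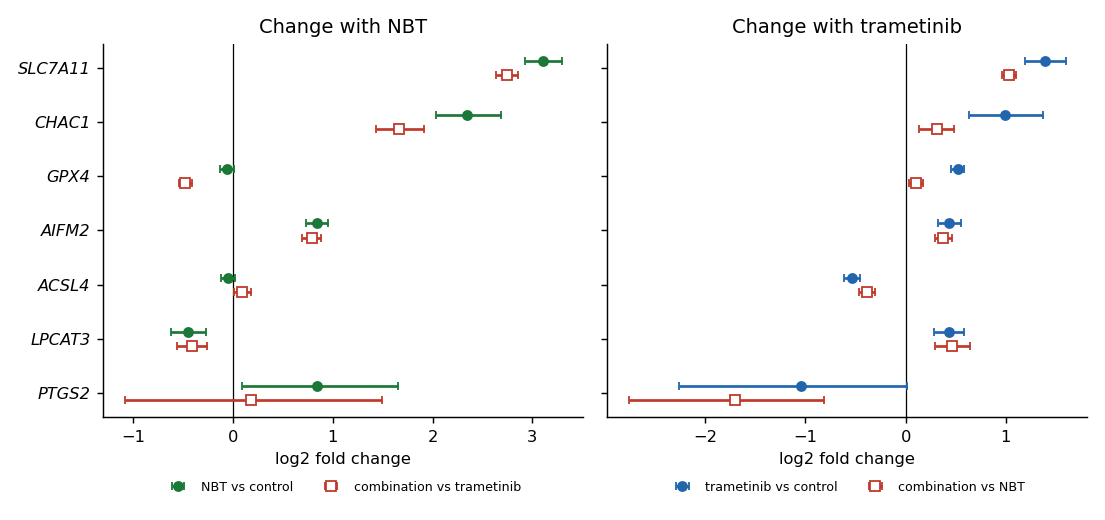
Log2 fold change with NBT (left) and with trametinib (right) for the 7 genes, without the other drug (filled circles) and in its presence (open squares), with 95% counting intervals. The paired values for AIFM2 and LPCAT3 overlap in both panels. For SLC7A11, CHAC1 and GPX4, and for PTGS2 within its wide bars, the open squares lie to the left of the filled circles.

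For 5 of the 7 genes the deposited table lists more than 1 transcript, with reads divided between them by estimation. Of the ACSL4 reads, the share of transcript NM_004458.3 was 30.1% (28.5 to 31.8) in the control library, 15.1% (13.8 to 16.4) with NBT, 28.9% (27.0 to 30.9) with trametinib and 24.0% (22.3 to 25.7) with both drugs. NM_001318510.2 made up the larger part, 57.6%, 71.7%, 58.4% and 61.9%. The gene's total was nearly equal in the control and NBT libraries, so the 2 transcripts shifted against each other there. For GPX4, NM_001367832.1 held 91.0% to 95.2% of the reads, and NM_002085.5 held 7.35% (6.46 to 8.27) in the control library and between 2.61% and 3.59% in the treated ones. NM_032797.6 of AIFM2 held 87.3% to 95.5%, NM_024111.6 of CHAC1 86.1% to 98.1% and NM_005768.6 of LPCAT3 96.8% to 100%. These exact binomial intervals cover counting error and not the error of dividing reads between transcripts.

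**Figure D4:**
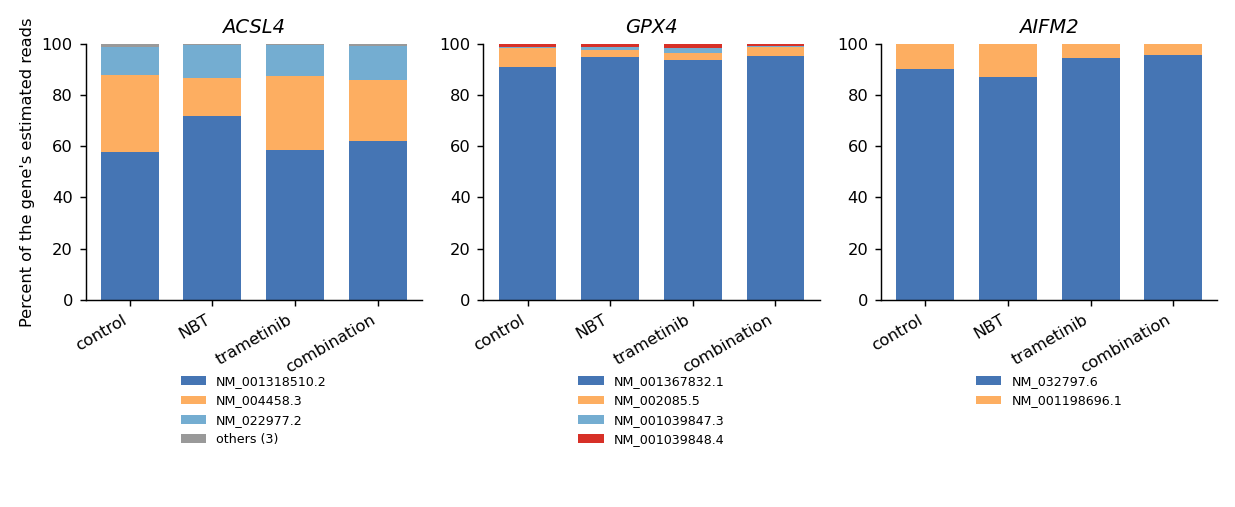
Percent of the estimated reads of ACSL4, GPX4 and AIFM2 assigned to each RefSeq transcript in the 4 libraries, with transcripts under 50 reads in every library summed as others. The main transcript of ACSL4 takes 71.7% in the NBT library and 57.6% to 61.9% in the other 3.

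Around these 7 genes, 83 further genes of 9 related functions were examined, of which 80 were in the table. The lists were chosen with earlier results of these data known, so the shares below describe them and do not test them. With NBT, 10 of the 79 tested were called higher (12.7%, beside 1.63% of all genes tested) and 3 lower (3.8%, beside 1.13%). For trametinib these numbers were 6 higher of 79 (7.59%, beside 3.86%) and 2 lower (2.53%, near the 2.28% of all genes). For both drugs they were 16 higher of 78 (20.5%, beside 4.89%) and 5 lower (6.41%, beside 3.83%). Their medians on the log2 scale were 0.10 for NBT, 0.13 for trametinib and 0.27 for both drugs. The plot of the 9 lists shows that most of their genes lay between the limits.

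**Figure D5:**
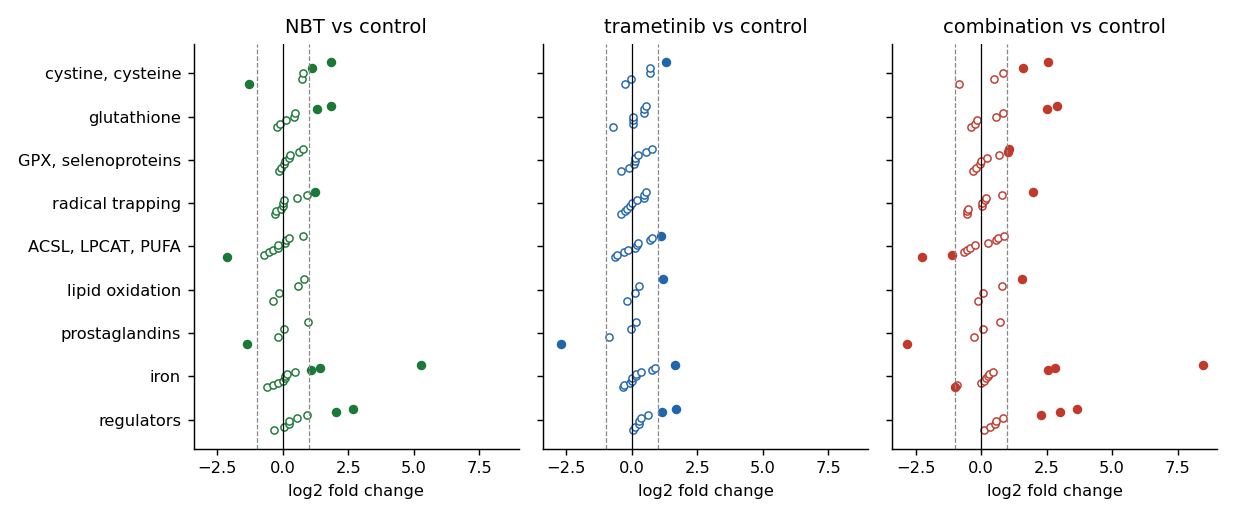
Log2 fold change against the control library of the genes of 9 lists related to ferroptosis with at least 100 reads in a library, 1 point per gene. Filled points were called, open points were not, and dashed lines mark the limit of 1. Most filled points lie to the right, and the exceptions include PTGES, SCD with NBT and with the combination, and SLC3A2 with NBT.

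In the supply of cysteine, 2 of 6 genes were called higher and 1 lower with NBT, 1 was higher with trametinib, and 2 were higher with the combination. Of all genes tested, 1.63% were higher and 1.13% lower with NBT, 3.86% and 2.28% with trametinib, and 4.89% and 3.83% with both drugs. These shares belong beside the counts of every list below. In lists this short, a count of 0 or 1 is no result about the list. CTH, which makes cysteine from cystathionine, was counted at 251, 932, 620 and 1542 reads in the control, NBT, trametinib and combination libraries, and rose in all 3 treated libraries, by 1.84, 1.29 and 2.55. SLC1A4, a carrier of neutral amino acids, rose by 1.14 with NBT and 1.61 with the combination. In glutathione metabolism, 2 of 10 were called higher with NBT, 0 with trametinib and 3 with both drugs, with 0 lower. GCLC, the catalytic subunit of the rate-limiting ligase of glutathione synthesis, had 1088, 2791, 1497 and 8518 reads, and rose by 1.31 with NBT and 2.91 with the combination. Its regulatory subunit GCLM rose by 1.85 and 2.51. The third was OPLAH, which had 18 reads in the control library and 62 in the combination library and was named after its values were seen. The combination exceeded the sum of the single drugs' log2 fold changes by 1.15 for GCLC and by 0.20 for the other subunit, GCLM.

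Among relatives of GPX4 and genes of selenoprotein synthesis, 0 of 10 were called with NBT or trametinib. With the combination, 3 were called higher: SEPHS2, which makes the selenium donor, by 1.08, SEPSECS, which completes selenocysteine on its transfer RNA, by 1.01, and GPX2, at 4 reads in the control library and 24 in the combination library, which was named after its values were seen. GPX1, the abundant cytosolic peroxidase, had 10881, 10829, 11453 and 9871 reads, and GPX8 had 567, 715, 969 and 686 reads, and neither was called. Of the genes that protect lipids beside GPX4, 1 of 10 was called, TXNRD1 (thioredoxin reductase), which rose by 1.25 with NBT and 1.99 with the combination. DHODH, which reduces coenzyme Q in mitochondria, had log2 fold changes of -0.25, -0.28 and -0.56, and GCH1, which starts the synthesis of tetrahydrobiopterin, of 0.00, -0.09 and 0.04 with NBT, trametinib and both drugs.

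Of the 12 genes related to ACSL4 and LPCAT3, SCD alone was called with a single drug. SCD, the desaturase that makes monounsaturated fatty acids, had 3080 reads in the control library, 738 with NBT, 6675 with trametinib and 674 with both drugs. It fell by 2.11 with NBT and by 2.25 with the combination and rose by 1.10 with trametinib. LPCAT4 fell by 1.10 with the combination. ACSL3, the paralog of ACSL4 that prefers monounsaturated fatty acids, had 2540, 1584, 4179 and 2227 reads, a pattern of levels with NBT lowest and trametinib highest, and no call. ACSL1 had log2 fold changes of 0.10, 0.77 and 0.66, LPCAT1 of -0.53, -0.56 and -0.65, and LPCAT2 of -0.19, -0.67 and -0.54, none called. ACSL5 had at most 7 reads in any library. Of 7 genes of lipid oxidation in the table, ALOX12 rose with trametinib, by 1.19, and CYB5R1, a flavoprotein reductase, rose with the combination, by 1.54.

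Around PTGS2, 2 of 6 genes of prostaglandin synthesis were called lower with trametinib and 2 with the combination, and 1 with NBT. The shares of all genes called lower were 2.28%, 3.83% and 1.13% in that order. PTGES, the inducible prostaglandin E synthase downstream of PTGS2, had 297, 120, 46 and 43 reads in the control, NBT, trametinib and combination libraries, and fell by 1.35, 2.69 and 2.84. PLA2G4A, which releases arachidonic acid, was the other, at 37 reads in the control library and 16 and 17 in the trametinib and combination libraries, and was named after its values were seen. PTGS1, the constitutive cyclooxygenase, had 422, 858, 234 and 734 reads, with log2 fold changes of 0.97, -0.86 and 0.73 that were not called.

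In iron handling, 3 of 11 genes were called higher with NBT and with the combination, and 1 with trametinib. The shares of all genes called higher were 1.63%, 4.89% and 3.86% in that order. FTH1, the heavy chain of ferritin, rose by 1.41 with NBT and 2.54 with the combination, and FTL, the light chain, by 1.08 and 2.80. Both have processed pseudogenes that may share reads. HMOX1, the heme oxygenase that frees iron from heme, had 121, 4825, 382 and 44631 reads and was called higher in all 3. STEAP3, a ferric reductase of endosomes, fell with the combination, by 1.01. Among 8 regulators, DDIT3 and TRIB3 rose with NBT by 2.67 and 2.02, DDIT3 and ATF3 rose with trametinib by 1.16 and 1.68, and all 3 rose with the combination, DDIT3 by 3.66, ATF3 by 3.02 and TRIB3 by 2.28. The RNA of ATF4 itself, named after its values were seen, had log2 fold changes of 0.55, 0.26 and 0.56 and was not called.

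The genes with the pattern most like that of SLC7A11 were found by the distance between the 3 log2 fold changes against the control, over 10656 genes. They were BEST1, ADM2, LCN2, DDIT3 and SESN2, at distances from 0.32 to 0.95, and only these 5 lay within a distance of 1. BEST1, ADM2 and LCN2 had 26, 16 and 11 reads in the control library, beside 196 for DDIT3 and 267 for SESN2. The distances of these scarcer genes carry more counting error. Genes were compared if they had at least 100 reads in any 1 library, which BEST1, ADM2 and LCN2 reached in treated libraries only. The number of genes within a distance of 1 thus depends on this filter. For CHAC1 they were SLFN5, TMEM125, FICD, CTH and PCK2, at 0.46 to 0.61, with 25 genes within 1. TMEM125 and FICD, with 39 and 71 reads in the control library, also passed through treated libraries only. For AIFM2 they were AARS1, PHTF1, FAM83B, SGK3 and C9orf72, at 0.04 to 0.08, with 214 genes within 0.5 and 1369 within 1. By the size of the rise, AIFM2 had rank 198 of 10408 genes with NBT and 279 of 10527 with the combination. These distances are descriptions over 4 libraries that share the control.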

How the data were processed

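RNA of 4 libraries from MIA PaCa-2 cells was sequenced on BGISEQ-500. The authors deposited, per gene and per RefSeq transcript, an estimated count that is not normalized, and a TPM value that corrects for length and library sum. Deposited FPKM values were not used. The submitters' processing notes name Bowtie2 2.2.5, RSEM 1.2.8 and hg38. The labels also describe a depletion of bacterial ribosomal RNA. All estimated counts were rounded, and 46.1% of genes had whole counts in all libraries (within 0.005).

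Libraries were grouped by title and treatment. Counts were scaled to library sums, and log2 fold changes were computed with 0.5 reads added. Each gene counted at least once in the 2 libraries was compared by an exact two-sided binomial test with Benjamini-Hochberg adjustment. The limits were those of the study, 0.05 and an absolute log2 ratio of 1. Intervals are 95% by the Clopper-Pearson method and hold for counting error alone, since PCR reads are not independent molecules. The calling steps were tested on libraries simulated with counting error alone, as the test assumes. Variation between cultures was left out, so this checked the steps and not the calls made here. Positions and promoters came from RefSeq GRCh38.p14 and exon overlaps from GENCODE v29 (GRCh38).

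Genes named beside the 7 were called list genes with at least 100 reads in a library, 13 fixed partners and paralogs, and for each called member the 5 genes nearest over the 3 log2 fold changes. The 7 genes and all lists were chosen with earlier results of these data known. Alternatives used edgeR 4.0.16, DESeq2 1.42.0 size factors, TPM, 5 added reads, a minimum of 10 counts, a log2 limit of 2, and edgeR's negative binomial exact test with assumed coefficients of variation. Scripts ran in R 4.3.3 and in Python 3.11.15 with matplotlib 3.10.9, numpy 2.4.6, pandas 2.3.3 and scipy 1.17.1.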

Additional observations from a re-analysis of the deposited data

Results flagged for a closer look

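For 4 genes related to the 7, a drug's log2 fold change had opposite signs without and with the other drug, with both counting intervals away from 0 when libraries were scaled to their sums. The differences were not tested, and the opposite signs held for 2 of the 4 genes, GPX8 and LPCAT2, under TMM and median-of-ratios factors, which were tried after the values were seen. NBT gave 0.28 for GPX8 without trametinib and -0.55 with it. For LPCAT2, NBT gave -0.19 and 0.13, and the second interval reached nearly to 0. Trametinib gave 0.061 for GPX1 without NBT and -0.15 with it, and the first value was -0.01 with TMM factors and -0.0048 with median-of-ratios factors, so no opposite sign past counting error was left. For STEAP3, trametinib gave 0.15 and -0.42, and the first value was 0.08 (-0.01 to 0.17) with TMM factors and 0.09 (-0.0037 to 0.18) with median-of-ratios factors, both within counting error of 0. SEPHS2 and SCD had opposite signs with trametinib under library sums too, at -0.10 and 0.32 for SEPHS2 and 1.10 and -0.14 for SCD. For each, 1 of the intervals held 0 there, and both lay away from 0 under TMM and median-of-ratios factors only. Of the values given for the 4 genes under library sums, none was called. The check covered both drugs in the 7 genes, the more abundant called list genes and the fixed partners and paralogs. How often opposite signs past counting error occur among all genes was not counted. Whether 4 genes are many or few thus cannot be said. Counting intervals are narrow for genes with many reads, so small values such as those of GPX1 can lie away from 0.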

How the results depend on the processing

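With 1 library per condition no replicate could be left out, no paired analysis was possible because there are no replicates, and a difference between cultures cannot be told apart from a drug's effect. Depth limits PTGS2 most. Of 175 recomputed log2 fold changes of the 7 genes, 0 reversed and 2 moved beyond their counting interval, both of GPX4 with trametinib (0.45 with TMM factors, 0.46 with median-of-ratios factors, beside 0.52). Comparisons below are in the order NBT, trametinib and combination against the control, combination against NBT, and combination against trametinib, and counts are of the 7 genes, of the list genes and of all genes. The values as reported were 2, 1, 3, 2 and 2, then 13, 8, 21, 8 and 19, and then 439, 995, 1416, 738 and 1041. With TMM factors, 1 of the 7 was called between combination and NBT, since SLC7A11 was lost there. Where cultures were assumed to vary by a coefficient of 0.2, the 7 genes gave 0 calls with trametinib and 0 between combination and NBT, the lists 6 with NBT, 3 with trametinib, 4 against NBT and 11 against trametinib, and all genes 69, 365, 547, 204 and 302. With 0.4, the counts were 0, 0, 1, 0 and 0, then 1, 0, 2, 0 and 1, and then 4, 22, 51, 13 and 14. With a log2 limit of 2, the 7 genes gave 0 with trametinib, 0 against NBT and 1 against trametinib, the lists 4, 1, 12, 2 and 6, and all genes 131, 372, 433, 269 and 275. The other scalings and filters kept each count within 1.5 times.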
